A study of Mus musculus with 4 samples.

Results

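Collagens are trimers of chains that are each encoded by a gene with a symbol of the form Col, number, a, number, and these genes were examined in sorted mesenchymal stromal cells (MSC) of the mouse intestine. Of the 28692 gene rows in each library, 44 carried such a symbol, and the 35 of them with at least 50 unique molecular identifiers (UMIs, single counted transcripts) over the 4 libraries are described. The members just inside this limit were Col11a2 with 74 UMIs, Col9a3 with 59 and Col6a6 with 54, and those just outside it were Col17a1 with 48 and Col26a1 with 44. The 35 genes held 2598553 UMIs and were read in 4 families, with 9 fibrillar, 8 network (Col4 and Col8), 6 Col6 and 12 minor collagen genes.

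The cells came from the lamina propria of the small intestine and of the colon of female C57BL6/Nrj mice of 8 to 10 weeks, all untreated and with no genetic alteration. Muscularis externa, Peyer's patches and epithelium had been removed, the tissue was digested with collagenase P or Liberase TM, and live cells lacking CD45, Ter119, CD31, BP3, EpCAM and L1CAM and bearing Itgb1 were sorted for single-cell RNA sequencing. Each intestine had 2 libraries, from 2 experiments with 3 pooled mice each, so single animals cannot be told apart and every p-value measures only the spread between these libraries. Fibroblasts (FB) were gated by marker genes that include no collagen into PDGFRαhi FB, CD81+ FB and remaining FB. The other MSC were gated into smooth muscle cells (SMC) and pericytes. Remaining FB are a mixed gate that takes in the Igfbp5+, CD90+ and Fgfr2+ FB of the study. The study found Igfbp5+ FB in the small intestine, CD90+ FB in the colon and Fgfr2+ FB in both. Changes between the intestines in this gate therefore also set different subset mixtures against each other.

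The libraries held 14341443 to 52269372 UMIs, and 1324, 14714, 2075 and 12161 gated MSC in small intestine 1, small intestine 2, colon 1 and colon 2, each numbered by replicate. The replicate 1 libraries had fewer and deeper cells (median 6968 and 8810 UMIs) than the replicate 2 libraries (2758 and 3893), came from another Cell Ranger version, and held 352 and 242 endothelial cells in spite of the CD31 sort, against 4 and 33. Between 0 and 69 cell barcodes were shared by any pair of libraries. In each library the median marker level of a class was read per cell, and most classes held their own list highest. In the second small intestinal library the SMC had a median of 70.5 UMIs of remaining FB markers per 10000 against 59.4 of SMC markers, and the 82 cells in the pericyte gate had 10.2 UMIs of pericyte markers against 15.3 of remaining FB markers. The 51 SMC of small intestine 1 held 58.3 of remaining FB markers against 90.6 of SMC markers. In SMC of colon 1 and colon 2 remaining FB markers were at 8.19 and 6.03. The PDGFRαhi FB of both colon libraries also held more UMIs of the remaining FB list (49.0 and 36.8) than of their own (37.6 and 25.4), a list that includes Pdpn and other genes shared among FB.

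Fibrillar collagens assemble into the tensile fibrils of connective tissue, where the type I trimer pairs Col1a1 with Col1a2 chains and types III and V share the fibril. Type IV chains build the sheet of the basement membrane, and type VI forms beaded microfibrils that link cells to the matrix. The minor collagens include fibril-associated chains such as Col12a1 and Col14a1, the proteoglycan-bearing basement membrane zone chains Col15a1 and Col18a1, and the transmembrane chains Col13a1 and Col23a1. In the gut wall FB lie between the epithelial basement membrane and the submucosa and are the main source of this matrix.

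Most of the collagen UMIs fell on few genes. Col3a1, Col1a2 and Col1a1 together held 63.3% of them, with 820873, 499467 and 325488 UMIs. The fibrillar genes held 69.3%, the Col6 genes 16.0%, the minor genes 8.36% and the network genes 6.34%. A UMI counts a transcript end whatever its length, so these are shares of counted transcripts and not of protein mass.

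CD81+ FB of the small intestine gave the highest share of their transcripts to collagen. In CD81+ FB the 35 genes took 2.34% and 3.35% of all UMIs in the small intestine (replicates 1 and 2) and 1.56% and 2.02% in the colon, a mean of 2.85% ± 0.711 against 1.79% ± 0.324 (SD, n = 2 libraries each). The 2 intestines did not overlap in this class, although the small intestinal libraries differed from each other by about as much as they differed from the colon. In PDGFRαhi FB the order was the other way, with 1.54% and 1.54% in the small intestine and 1.91% and 1.78% in the colon. Remaining FB held 1.81% and 2.24% in the small intestine and 1.82% and 1.83% in the colon, which overlapped. SMC were lower, at 0.845% and 1.23% in the small intestine and 0.857% and 0.95% in the colon. Pericytes ranged from 0.442% to 1.66%, the highest value being the second small intestinal library with its impure gate. With 2 libraries against 2, the smallest p an exact two-sided permutation test can give is 0.33, so no test was made. The 95% Wilson intervals of these shares, which cover counting error only, overlapped between the replicates in PDGFRαhi FB of the small intestine (1.52% to 1.56% and 1.53% to 1.55%) and in remaining FB of the colon (1.81% to 1.83% and 1.83% to 1.84%), and in no other class. Endothelial cells of the replicate 1 libraries held 0.233% and 0.270%.

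The make-up of the collagen transcripts differed between classes. In PDGFRαhi FB the fibrillar genes were 42.9% and 46.8% of the collagen UMIs in the small intestine and 59.9% and 64.4% in the colon, and the Col6 genes were 41.7% and 32.3% against 30.5% and 22.0%. In CD81+ FB the fibrillar genes were 77.6% and 79.9% in the small intestine and 69.8% and 72.5% in the colon. Network genes were 34.1% and 26.3% of the collagen UMIs of pericytes in the replicate 1 libraries and 12.6% and 20.4% in the replicate 2 libraries, against 3.17% to 10.2% in the 3 FB classes.

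**Figure D1:**
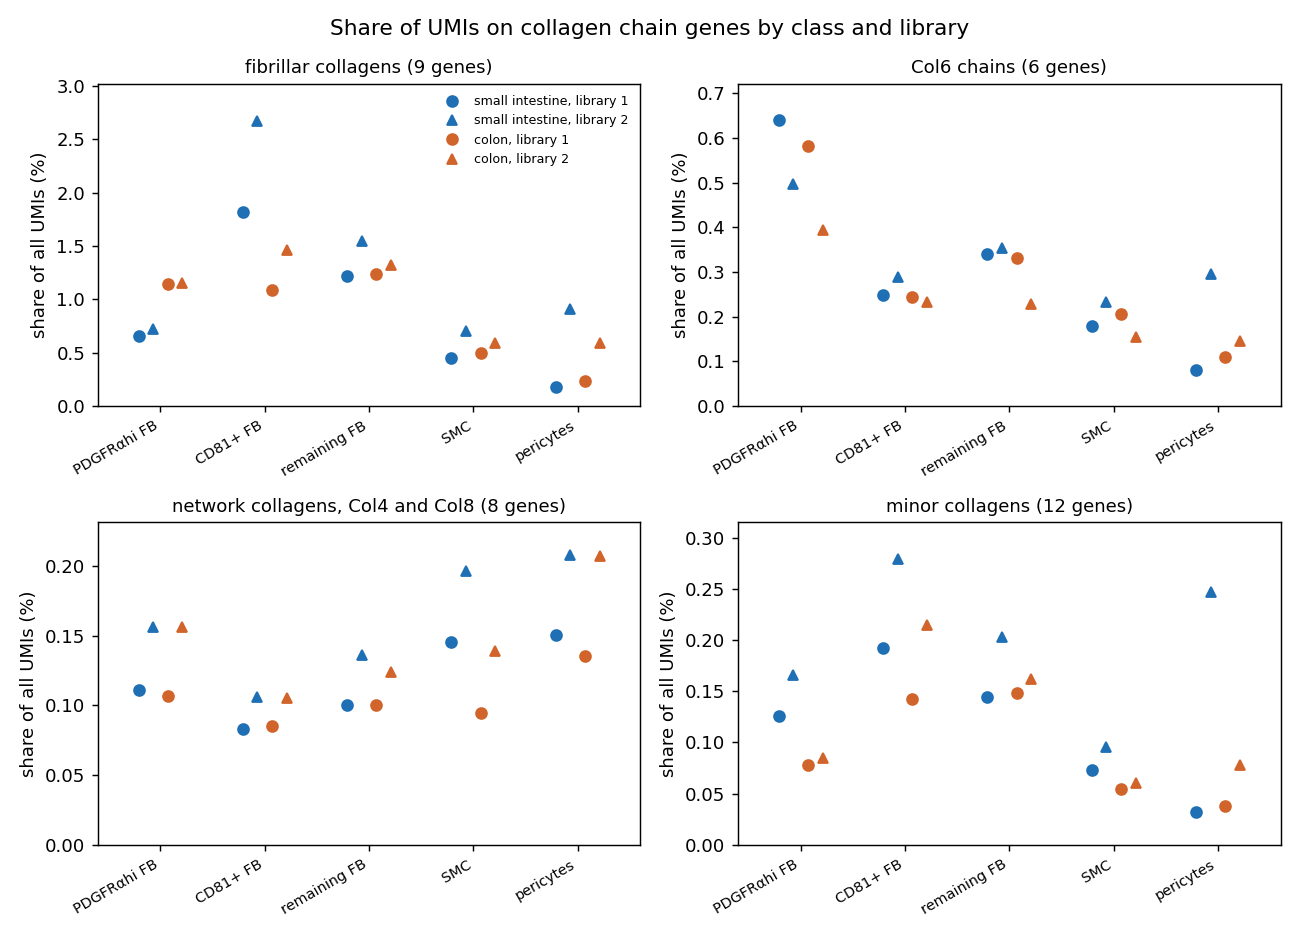
Share of each class's UMIs that fell on the fibrillar, Col6, network and minor collagen genes (vertical axes, percent), by cell class (horizontal axes), with 1 point per library, circles for replicate 1 and triangles for replicate 2, blue for small intestine and orange for colon. CD81+ FB of the small intestine lie highest for the fibrillar genes, at 1.82% and 2.68%, and PDGFRαhi FB lie highest for the Col6 genes, at 0.394% to 0.640%.

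The classes were then compared within libraries. UMIs were summed per library and class, each class was set against the remaining FB with the library as a block, and a gene was called at an adjusted p under 0.05 over all 11896 genes tested and a change beyond 1 on the log2 scale (edgeR's quasi-likelihood test with Benjamini-Hochberg adjustment). Of the 35 genes, 28 had enough UMIs to be tested. A count of 0 allows up to 3 UMIs, which stood at 0.11 to 2.01 CPM in the FB classes and at 1.23 to 20.3 in SMC and pericytes. Of the 28 genes tested, 24 were called in at least 1 class and 4 in none. Of the 24, 3 (Col8a1, Col22a1 and Col24a1) were higher in 1 class and lower in another. The share of all genes called in at least 1 class was not counted. In single contrasts 2.31% to 7.96% of all genes were called higher and 3.04% to 9.98% lower. The counts by family that follow stand beside these shares.

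Of the 8 fibrillar genes tested, 6 were called lower in SMC than in remaining FB and 5 in pericytes, and 0 were called higher in either. Col1a1, the main chain of type I collagen, stood at 3775 and 2494 UMIs per 1000000 UMIs of its class and library (CPM) in remaining FB of the small intestine and at 3088 and 1855 in those of the colon, against 971 and 928 and 807 and 516 in SMC. SMC were lower in every library, with a log2 change of -1.98 (SE 0.43, adjusted p = 0.00285). Its partner Col1a2 was at 2788, 4389, 2758 and 3413 CPM in remaining FB, in the order small intestine 1 and 2 and colon 1 and 2, and at 1015, 1540, 912 and 1046 in SMC, a change of -1.74 (SE 0.41, adjusted p = 0.00501). In pericytes Col1a1 was at 313, 1139, 302 and 796 and Col1a2 at 272, 2101, 308 and 1389 CPM. Their changes were -2.35 (SE 0.45, adjusted p = 0.00128) and -2.24 (SE 0.43, adjusted p = 0.00128).

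Col3a1, the chain of type III collagen, was the most abundant transcript of the family in remaining FB, at 4643 and 7123 CPM in the small intestine and 5420 and 6615 in the colon. Pericytes held 866 and 4853 and 1298 and 2790, a change of -1.72 (SE 0.38, adjusted p = 0.00375). SMC held 2023 and 3745 and 2780 and 3730, a change of -1.16 (SE 0.37, adjusted p = 0.028) that lost its call without small intestine 1 (adjusted p = 0.0869), colon 1 (0.062) or colon 2 (0.104). It also lost the call with low-count genes kept, and with classes set by clusters in place of gates. Among the type V chains, which regulate fibril width, Col5a1 was lower in SMC with a log2 change of -1.94 (SE 0.22, adjusted p = 4.59e-06) and in pericytes with a log2 change of -1.86 (SE 0.23, adjusted p = 1.33e-05). Its levels were 400, 580, 362 and 419 CPM in remaining FB, 144, 220, 82.0 and 107 in SMC and 92.7, 352, 53.7 and 177 in pericytes. Every SMC and every pericyte sum lay below all 4 remaining FB sums.

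Col5a2 was at 486, 614, 588 and 624 CPM in remaining FB and at 191, 495, 213 and 362 in pericytes. It was lower in pericytes with a log2 change of -1.18 (SE 0.20, adjusted p = 0.000301). Col5a3 was at 85.9, 167, 89.6 and 179 in remaining FB and at 14.8, 71.4, 16.6 and 52.3 in SMC, lower with a log2 change of -2.14 (SE 0.40, adjusted p = 0.000896). In pericytes it was at 20.3, 40.7, 109 and 294 and was not called. Col5a3 also differed between replicates, with more than 1 log2 unit in favour of replicate 2 in both intestines in PDGFRαhi FB, CD81+ FB, SMC and pericytes.

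Col24a1 and Col27a1 are less common fibrillar chains, and both were low in CD81+ FB. Col24a1 was highest in PDGFRαhi FB, at 24.8 and 21.1 CPM in the small intestine and 14.2 and 12.2 in the colon, against 1.11 and 1.32 and 5.35 and 4.63 in remaining FB. It was higher in PDGFRαhi FB in all 4 libraries, by 2.36 on the log2 scale (SE 0.43, adjusted p = 0.000667), and lower in CD81+ FB with a log2 change of -2.72 (SE 0.70, adjusted p = 0.0207). The latter call rested on 0 to 7 UMIs a library and was lost without colon 2 (adjusted p = 0.268). Col27a1 was at 42.3, 65.3, 84.1 and 81.3 CPM in remaining FB and at 9.95, 19.67, 10.1 and 17.8 in CD81+ FB, which was lower with a log2 change of -2.15 (SE 0.35, adjusted p = 0.00107). In SMC Col27a1 was called lower, with a log2 change of -1.26 (SE 0.40, adjusted p = 0.0257). Both small intestinal SMC libraries, at 59.1 and 96.3, however lay above their remaining FB, and the call was lost without colon 1 (adjusted p = 0.275) or colon 2 (0.263). It was also lost by DESeq2 and with classes by clusters.

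**Figure D2:**
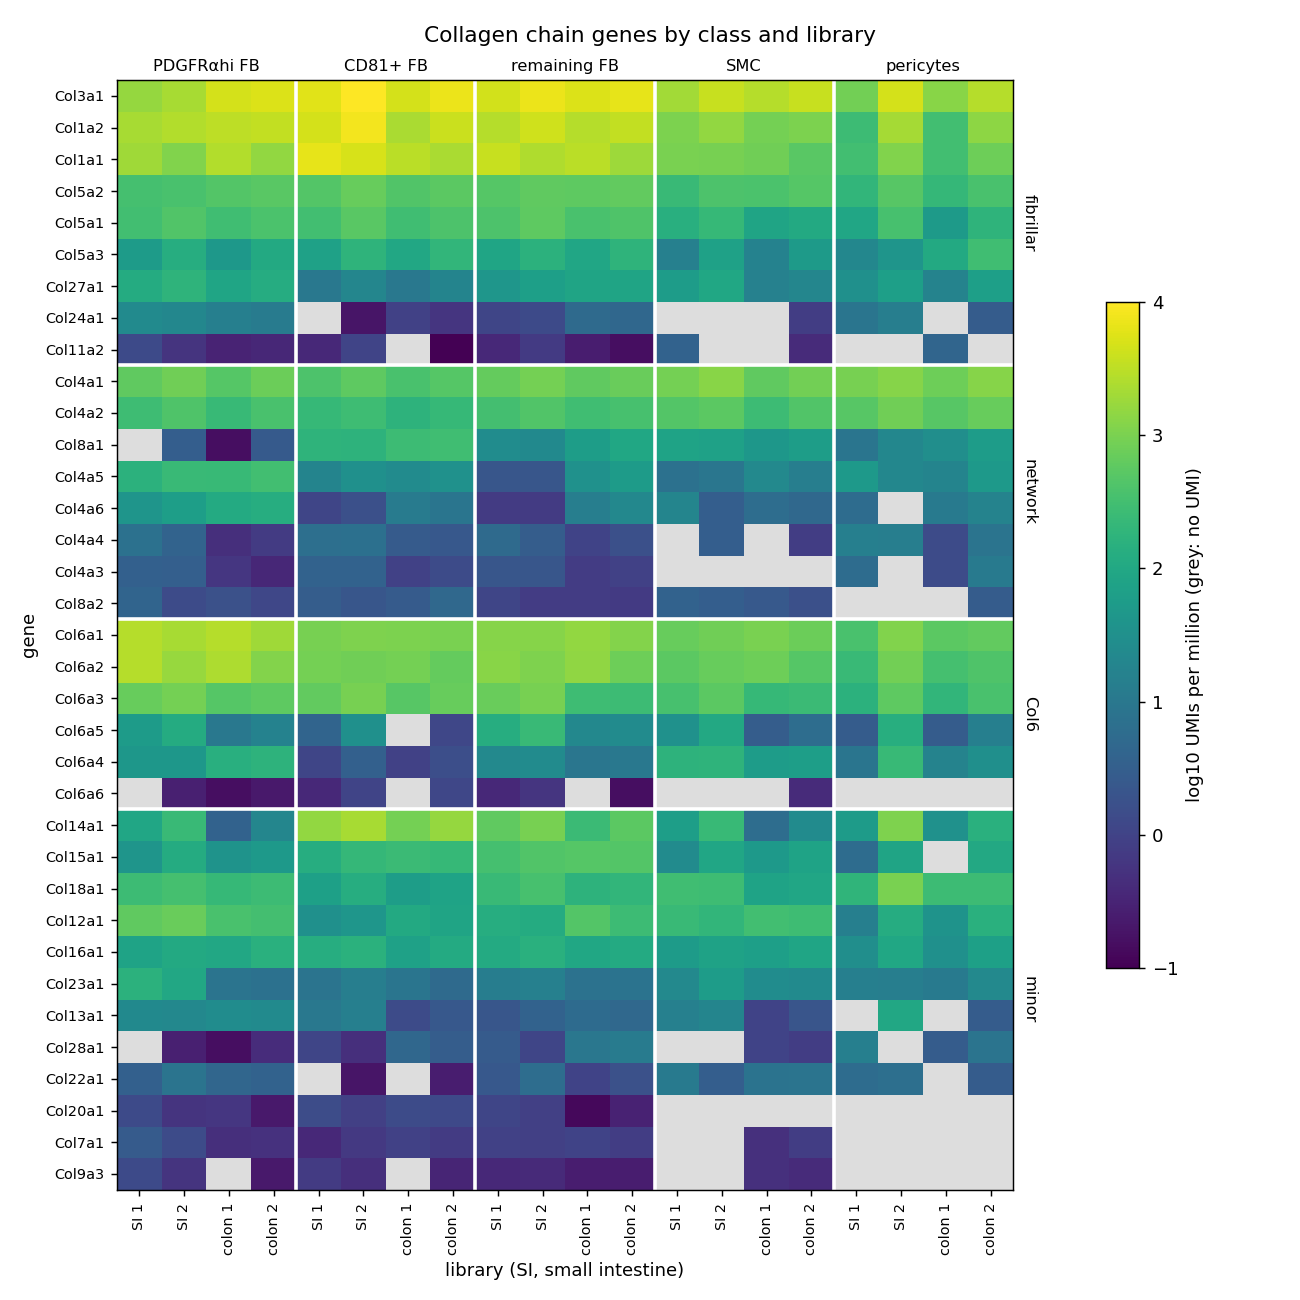
CPM, as log10 and in color, of the 35 collagen chain genes (rows, by family) in each cell class and library (columns), with gray for no UMI. Most fibrillar rows are brightest in an FB column, and Col4a5, Col4a6 and Col24a1 are brightest in PDGFRαhi FB. Col5a3 (294 in colon 2) and Col11a2 (4.24 in colon 1, from 3 UMIs) are brightest in pericytes.

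Of the 6 network genes tested, 2 were called higher and 1 lower in PDGFRαhi FB than in remaining FB, 1 was higher in CD81+ FB, and 0 were called in SMC or in pericytes. The pair Col4a1 and Col4a2, which make the common type IV trimer of basement membranes, was called in no class contrast. Col4a1 was at 647, 891, 596 and 721 CPM in remaining FB, and its lowest and highest sums over all classes and libraries were 367 in CD81+ FB of colon 1 and 1313 in SMC of small intestine 2. Col4a2 ranged from 172 in CD81+ FB of colon 1 to 813 in pericytes of small intestine 2. These genes are also basement membrane products of endothelial cells, which held 813 and 943 Col4a1 CPM in the replicate 1 libraries.

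The pair Col4a5 and Col4a6, chains of a second type IV trimer, marked PDGFRαhi FB. Col4a5 was at 167 and 244 CPM in PDGFRαhi FB of the small intestine and at 233 and 310 in those of the colon. In remaining FB it was at 2.22 and 2.19 in the small intestine, from 12 and 60 UMIs, and at 34.4 and 54.7 in the colon. CD81+ FB held 17.7 and 31.7 in the small intestine and 25.6 and 34.0 in the colon. PDGFRαhi FB were higher than remaining FB in every library, by 75.3-fold and 111-fold in the small intestine and 6.76-fold and 5.66-fold in the colon. Over all libraries Col4a5 was higher by 3.62 on the log2 scale (SE 0.68, adjusted p = 0.00155). Col4a6 was at 40.9, 63.3, 116 and 131 CPM in PDGFRαhi FB and at 0.739, 0.731, 13.5 and 21.6 in remaining FB. Its change was 3.66 (SE 0.48, adjusted p = 6.28e-05), and its folds of 55.3 and 86.6 in the small intestine and 8.62 and 6.09 in the colon fell in the same order as those of Col4a5.

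Col8a1, a short network chain found in vessel walls and subendothelium, marked CD81+ FB and was nearly absent from PDGFRαhi FB. It was at 181 and 170 CPM in CD81+ FB of the small intestine and at 267 and 297 in those of the colon, against 26.8 and 23.5 and 59.4 and 95.5 in remaining FB. CD81+ FB were higher in each library, by 6.76, 7.24, 4.5 and 3.11-fold, and by 2.44 on the log2 scale (SE 0.37, adjusted p = 0.000688). PDGFRαhi FB held 0, 3.05, 0.155 and 2.62 CPM, a change of -5.08 (SE 0.52, adjusted p = 5.42e-06). Of the cells, 63.1%, 34.7%, 64.5% and 51.5% of CD81+ FB and 0%, 0.383%, 0.167% and 0.769% of PDGFRαhi FB had a Col8a1 UMI, against 3.41% and 2.89% of endothelial cells in the replicate 1 libraries. In small intestine 1 this was 0 of 185 PDGFRαhi cells, which allows a share of up to 1.62%. The median depths were 8712.5, 3031, 8222 and 3859 UMIs in CD81+ FB, 8566, 2168, 10381 and 3890 in PDGFRαhi FB, and 4502 and 5109.5 in endothelial cells, so the PDGFRαhi share lay below that of a cell type with few such transcripts. After thinning each cell to 1000 UMIs the shares were 19.4%, 13.9%, 19.2% and 22.8% in CD81+ FB and at most 0.207% in PDGFRαhi FB. Plasma cells of the colon were no such reference, since 28 of 29 and 38 of 38 of them had a Col3a1 UMI.

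The bases before the starts of Col4a5, Col4a6, Col8a1 and Col23a1 are shown because these are the 3 genes called between the intestines, Col4a5, Col4a6 and Col23a1, and the network chain with opposite calls in CD81+ and PDGFRαhi FB, Col8a1. Col4a5 (X:141475385-141689234, plus strand) and Col4a6 (X:141165403-141474076, minus strand) lie head to head, with starts 1309 bases apart, whereas the starts of Col4a1 and Col4a2 on chromosome 8 lie 21 bases apart. The sequences were taken from RefSeq (GRCm38.p6), run 5′ to 3′ on the gene's own strand, and leave out any annotated exon. They cover chrX:141475169-141475384 for Col4a5, chrX:141474077-141474326 for Col4a6, chr16:57754738-57754987 for Col8a1 (minus strand) and chr11:51289670-51289919 for Col23a1 (plus strand). Capitals mark the letters CCAAT or ATTGG and GGGCGG or CCGCCC.
Col4a5: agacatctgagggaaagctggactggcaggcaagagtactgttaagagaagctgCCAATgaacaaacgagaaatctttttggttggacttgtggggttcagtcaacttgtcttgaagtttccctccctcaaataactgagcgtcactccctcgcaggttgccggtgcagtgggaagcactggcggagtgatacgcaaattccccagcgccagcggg
Col4a6: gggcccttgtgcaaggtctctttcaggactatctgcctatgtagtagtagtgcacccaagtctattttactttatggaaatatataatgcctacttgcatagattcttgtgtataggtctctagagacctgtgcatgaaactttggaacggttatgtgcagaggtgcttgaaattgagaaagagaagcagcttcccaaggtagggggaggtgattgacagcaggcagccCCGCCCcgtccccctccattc
Col8a1: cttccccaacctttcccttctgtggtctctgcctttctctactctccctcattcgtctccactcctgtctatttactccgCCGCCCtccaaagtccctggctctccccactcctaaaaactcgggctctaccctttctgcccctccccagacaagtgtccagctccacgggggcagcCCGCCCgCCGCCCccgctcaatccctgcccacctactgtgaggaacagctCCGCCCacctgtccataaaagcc
Col23a1: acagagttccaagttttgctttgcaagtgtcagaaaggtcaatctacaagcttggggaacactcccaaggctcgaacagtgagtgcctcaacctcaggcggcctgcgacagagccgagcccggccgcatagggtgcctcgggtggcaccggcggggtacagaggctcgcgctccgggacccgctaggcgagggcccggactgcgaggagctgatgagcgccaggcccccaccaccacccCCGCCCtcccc
The Col4a5 stretch, which ends 34 bases before the RefSeq start, held 1 CCAAT and no GGGCGG. In the full 250 bases Col4a5 also had 1 GGGCGG, 30 bases before the start. Col4a6 and Col23a1 held 1 GGGCGG each, and Col8a1 held 4. On either strand within 250 bases of the start, GGGCGG was found in 19 of the 30 promoter rows of 28 collagen genes that matched by symbol and in 32.7% of all 32851 promoters. CCAAT was found in 9 of the 30 and in 33.9% of all, and TATAAA in 3 of the 30 and in 12.4% of all. These matches describe letters only.

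Col6a1 and Col6a2, partners in type VI collagen, had their highest levels in PDGFRαhi FB, but of the Col6 genes Col6a4 was the only member called higher there. Col6a1 was at 2801, 2234, 2746 and 1968 CPM in PDGFRαhi FB and at 1226, 1261, 1532 and 1172 in remaining FB. Col6a2 was at 2813, 1665, 2441 and 1192 in PDGFRαhi FB and at 1306, 1059, 1464 and 797 in remaining FB. For both genes PDGFRαhi FB lay above remaining FB of the same library in all 4 libraries, with changes of 0.73 and 0.61 on the log2 scale (SE 0.18 and 0.25). Both lay under the limit of 1, and Col6a2 also missed the limit on p (adjusted p = 0.00736 for Col6a1 and 0.0928 for Col6a2). Pericytes were lower for Col6a1, at 371, 1132, 544 and 616, with a log2 change of -1.25 (SE 0.19, adjusted p = 0.000105), and for Col6a2, at 246, 881, 339 and 411, with a log2 change of -1.56 (SE 0.26, adjusted p = 0.000308). SMC were lower for Col6a2, at 561, 686, 800 and 472, with a log2 change of -1.04 (SE 0.25, adjusted p = 0.00489), which without small intestine 1 came to -0.91, within the limit of 1. This call was also lost with other size factors, by DESeq2 and with classes by clusters.

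Col6a3, the long chain of the common type VI trimer, was called in no class contrast, and was at 711, 952, 279 and 269 CPM in remaining FB and 691, 906, 484 and 587 in PDGFRαhi FB. Col6a4 and Col6a5 are alternative chains that can take its place. In PDGFRαhi FB and in SMC Col6a4 was called higher and Col6a5 lower than in remaining FB, whereas in CD81+ FB both had negative changes, -2.92 for Col6a4 (SE 0.87, adjusted p = 0.0583) and -3.73 for Col6a5. Col6a4 was at 44.9, 44.4, 144 and 171 CPM in PDGFRαhi FB, 170, 177, 58.4 and 62.5 in SMC and 22.5, 25.4, 9.30 and 9.93 in remaining FB. SMC were higher than remaining FB by 7.54, 6.96, 6.27 and 6.29-fold, a change of 2.47 (SE 0.70, adjusted p = 0.0168), and PDGFRαhi FB by 1.99, 1.75, 15.5 and 17.2-fold, a change of 2.74 (SE 0.67, adjusted p = 0.00923). Without colon 1 or colon 2 both calls were lost. In SMC the change stayed at 2.48 and 2.49 (adjusted p = 0.0805 and 0.0817), and in PDGFRαhi FB it came to 2.22 and 2.06 (adjusted p = 0.116 and 0.132).

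Col6a5 was highest in remaining FB, at 133, 246, 21.4 and 25.8 CPM, and was lower in all 4 other classes. It was at 4.05, 31.7, 0 and 1.16 in CD81+ FB, a change of -3.73 (SE 0.39, adjusted p = 2.49e-05). In PDGFRαhi FB it was at 54.3, 121, 9.90 and 16.3, lower with a log2 change of -1.21 (SE 0.32, adjusted p = 0.0127), and without colon 1 the adjusted p was 0.0767. In SMC, at 33.2, 106, 3.02 and 6.13, the change was -2.15 (SE 0.42, adjusted p = 0.00134), and in pericytes, at 2.90, 136, 2.83 and 14.3, it was -2.25 (SE 0.52, adjusted p = 0.00498; 0.0619 without small intestine 1).

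Of the 9 minor collagens tested, 2 were called higher and 3 lower in PDGFRαhi FB than in remaining FB, and 4 lower in CD81+ FB. Col14a1, a fibril-associated chain, was at 1533, 2217, 908 and 1639 CPM in CD81+ FB, 597, 947, 259 and 551 in remaining FB and 89.1, 243, 3.71 and 20.1 in PDGFRαhi FB. PDGFRαhi FB were lower than remaining FB with a log2 change of -3.91 (SE 0.69, adjusted p = 0.000951). SMC, at 62.8, 233, 6.04 and 25.7, were lower with a log2 change of -3.98 (SE 0.72, adjusted p = 0.000916), and pericytes, at 55.0, 1078, 33.9 and 148, with a log2 change of -2.11 (SE 0.67, adjusted p = 0.0325). The pericyte call was lost without small intestine 1 (adjusted p = 0.136), colon 1 (0.139) or colon 2 (0.139). It was also lost with low-count genes kept and with classes by clusters.

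Col15a1, a chain of the basement membrane zone, was at 340, 432, 487 and 467 CPM in remaining FB. It was lower in PDGFRαhi FB, at 40.2, 120, 36.6 and 49.3, with a log2 change of -3.16 (SE 0.52, adjusted p = 0.0005). In SMC, at 25.8, 90.04, 50.3 and 80.0, the change was -3.07 (SE 0.55, adjusted p = 0.00078), and in pericytes, at 5.79, 81.3, 0 and 106, it was -3.84 (SE 0.63, adjusted p = 0.000461). No sum of these 3 classes reached any of remaining FB. Its relative Col18a1, the source of endostatin, was at 239, 352, 171 and 199 in remaining FB and at 68.9, 129, 59.5 and 80.6 in CD81+ FB, lower with a log2 change of -1.37 (SE 0.29, adjusted p = 0.00671; 0.0747 without colon 1). Col16a1 was at 115, 150, 94.2 and 113 in remaining FB and at 29.0, 94.9, 32.5 and 68.5 in pericytes, lower with a log2 change of -1.43 (SE 0.28, adjusted p = 0.00124). With classes by clusters that change came to -0.98, within the limit of 1.

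Col12a1, another fibril-associated chain, was at 591, 720, 366 and 325 CPM in PDGFRαhi FB and 128, 119, 450 and 263 in remaining FB. The 2 classes overlapped in the colon and not in the small intestine. It was called lower in CD81+ FB, at 32.1, 41.9, 111 and 84.6, with a log2 change of -1.69 (SE 0.48, adjusted p = 0.0417). This call was lost without any single library, with adjusted p from 0.113 to 0.133, and also with low-count genes kept. In pericytes it was at 14.5, 122, 36.7 and 151, lower with a log2 change of -1.87 (SE 0.56, adjusted p = 0.0236; 0.0966 without small intestine 1 and 0.197 without colon 1).

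The 2 transmembrane chains were higher in PDGFRαhi FB. Col13a1, found at cell-matrix junctions, was at 23.5, 21.6, 27.5 and 24.7 CPM in PDGFRαhi FB and at 2.22, 3.76, 5.48 and 4.79 in remaining FB. It was higher in each library, by 2.47 on the log2 scale (SE 0.63, adjusted p = 0.0108; 0.0556 without colon 2). Col23a1 was at 167, 100.2, 8.35 and 7.19 in PDGFRαhi FB and at 12.9, 14.9, 7.65 and 8.20 in remaining FB. Its pooled change of 1.76 (SE 0.56, adjusted p = 0.0345) joined folds of 12.9 and 6.74 in the small intestine with folds of 1.09 and 0.877 in the colon, and the call was lost without small intestine 1 (adjusted p = 0.207) or small intestine 2 (0.275). That call was also lost with low-count genes kept. Endothelial cells also held Col13a1, at 160 and 232 CPM, and Col23a1, at 207 and 31.6, in the replicate 1 libraries. The 5 endothelial markers together were at 1.34, 3.89, 2.94 and 3.49 CPM in PDGFRαhi FB, with 3, 1, 3 and 1 of them at 0.

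Among the rarest members tested, Col28a1 was lower in PDGFRαhi FB (0, 0.278, 0.155 and 0.436 CPM) than in remaining FB (2.77, 1.10, 9.81 and 12.1) with a log2 change of -4.70 (SE 0.54, adjusted p = 4.16e-06). It was also called lower in SMC, at 0, 0, 1.01 and 0.817, with a log2 change of -3.56 (SE 0.67, adjusted p = 0.000585), and in CD81+ FB, at 1.11, 0.482, 4.58 and 2.99, with a log2 change of -1.40 (SE 0.39, adjusted p = 0.0317). The CD81+ call was lost without small intestine 2 (adjusted p = 0.0559), colon 1 (0.0872) or colon 2 (0.447). It was also lost by DESeq2 and with doublets kept. The SMC call of Col28a1 was lost with classes by clusters (adjusted p = 0.0588). Col22a1, a chain of tissue junctions, was at 2.40, 6.21, 1.02 and 1.73 in remaining FB and at 0, 0.193, 0 and 0.249 in CD81+ FB, lower with a log2 change of -3.78 (SE 0.62, adjusted p = 0.000669). In SMC, at 11.1, 3.11, 8.05 and 8.58, it was higher by 1.70 (SE 0.45, adjusted p = 0.00838; 0.093 without colon 1 and 0.123 without colon 2). These fitted changes rest on few UMIs, and the limit of a count of 0, 3 UMIs, stood at 11.1 and 9.32 CPM in the small intestinal SMC.

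By count, 6 of the 28 tested collagen genes were called higher and 5 lower in PDGFRαhi FB than in remaining FB, when 5.13% of all genes were called higher and 7.07% lower. In CD81+ FB 1 was higher and 7 lower, against 2.31% and 3.04% of all genes. In SMC 2 were higher and 11 lower, against 6.62% and 9.98%, and in pericytes 0 were higher and 12 lower, against 7.96% and 7.42%. By DESeq2 the called members numbered 11, 8, 13 and 13 in the 4 classes. The median change of the 28 genes was -0.276, -0.209, -0.908 and -0.926 on the log2 scale in the same order, while the median of all genes lay between -0.0563 and 0.000878. Without the pericytes of the second small intestinal library, added after the data were seen, 12 members were again called, with Col1a1 at -2.66 and Col1a2 at -2.57. That fit kept the pericytes of colon 2, whose collagen share also lay above that of replicate 1.

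**Figure D3:**
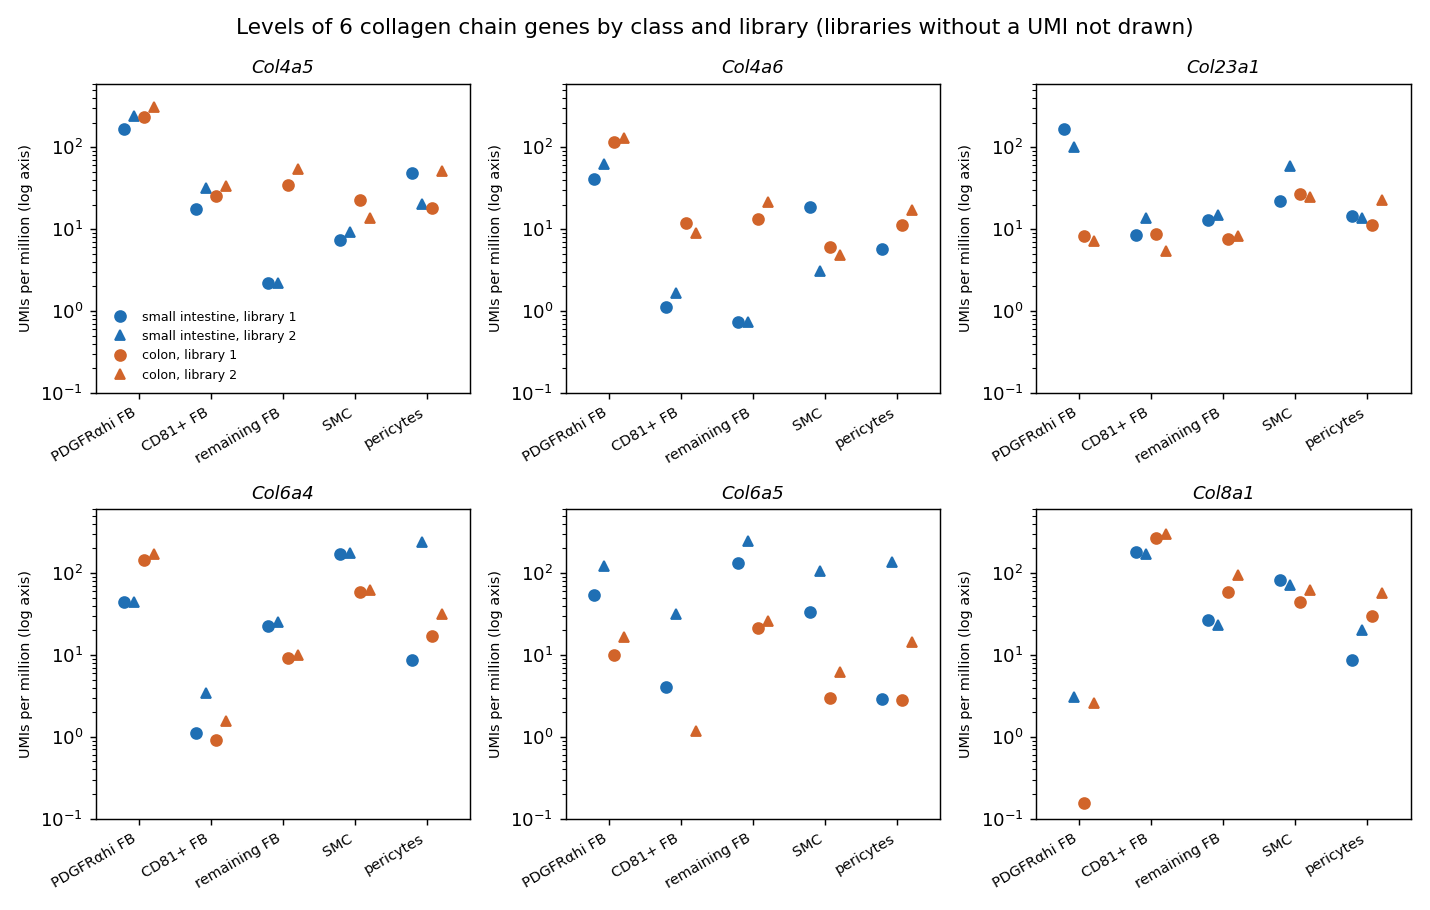
CPM (vertical axes, log scale) of 6 collagen chain genes in each cell class (horizontal axes), with 1 point per library, circles for replicate 1 and triangles for replicate 2, blue for small intestine and orange for colon. A library without a UMI has no point. Col8a1 lies at 170 to 297 in CD81+ FB and at 3.05 or less in PDGFRαhi FB, and Col4a5 in remaining FB is about 2 in the small intestine and 34.4 and 54.7 in the colon.

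The intestines were compared within each class, where the study's limit of 1.5 on the log2 scale was used beside an adjusted p under 0.05. In PDGFRαhi FB 0 of the 28 tested collagen genes were called higher in the colon and 1 lower, against 0.673% and 0.587% of 11745 genes. In remaining FB 2 of 32 were higher and 0 lower, against 0.303% and 0.21% of 12865 genes. In CD81+ FB 0 of 28 were called, against 0.18% higher and 0.317% lower, and in SMC 0 of 23, against 0.208% and 0.481%. At an unadjusted p under 0.05 there were 9, 13, 10 and 8 members in PDGFRαhi FB, remaining FB, CD81+ FB and SMC, when 12.6%, 10.3%, 9.7% and 9.8% of all genes tested had such a p. By DESeq2 5, 6, 2 and 4 were called. The pericytes were not tested between the intestines. The median change of the tested members was -0.104, -0.245, -0.452 and -0.479 in the 4 classes, against 0.00923, 0.00454, -0.00965 and 0.026 over all genes.

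Col23a1 was lower in colonic PDGFRαhi FB. It stood at 167 and 100.2 CPM in the small intestine and at 8.35 and 7.19 in the colon, so the intestines did not overlap. The change was -3.95 on the log2 scale (SE 0.37, adjusted p = 0.0298), and within replicate numbers it was -4.32 and -3.80. The call was lost without small intestine 1 (adjusted p = 0.0678) or small intestine 2 (0.103), with changes of -3.55 and -4.27. A Col23a1 UMI was found in 45.9% and 18.6% of small intestinal and in 7.51% and 2.72% of colonic PDGFRαhi FB, and after thinning to 1000 UMIs a cell in 9.73% and 9.39% against 0.668% and 0.740%. In endothelial cells of the replicate 1 libraries the unthinned shares were 23.6% and 11.98%. In remaining FB Col23a1 was at 12.9 and 14.9 against 7.65 and 8.20 (-0.84 on the log2 scale, SE 0.24, adjusted p = 0.325).

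Col4a5 and Col4a6 were higher in colonic remaining FB. Col4a5 stood at 2.22 and 2.19 CPM in the small intestine and at 34.4 and 54.7 in the colon, a change of 4.32 on the log2 scale (SE 0.38, adjusted p = 0.0442) and of 3.96 and 4.64 within replicate numbers. Col4a6 stood at 0.739 and 0.731 against 13.5 and 21.6, a change of 4.55 (SE 0.43, adjusted p = 0.0474), or 4.19 and 4.89. Neither pair of intestines overlapped. Both calls were lost without small intestine 1 (adjusted p = 0.21 for both) or small intestine 2 (0.26 and 0.304), when no gene at all was called in this class, and with doublets kept (changes of 3.72 and 3.998, adjusted p = 0.0915 and 0.0724). By clusters in place of gates Col4a5 changed by 5.23 (adjusted p = 0.0673).

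A Col4a5 UMI was found in 0.571% and 0.546% of small intestinal and in 23.7% and 18.0% of colonic remaining FB, and in 0.284% and 2.07% of endothelial cells of the replicate 1 libraries. The median depths of the remaining FB were 8132 and 2776 UMIs in the small intestine and 9094.5 and 4121 in the colon. After thinning to 1000 UMIs the shares in remaining FB were 0% (0 of 700 cells, which allows up to 0.429%) and 0.220% against 3.57% and 5.83%. As the same pair marks PDGFRαhi FB, the 8 PDGFRαhi markers were read in these cells: together they were at 352 and 322 CPM in small intestinal and 565 and 440 in colonic remaining FB, and at 2661 to 3894 in PDGFRαhi FB. The part of such cells in the Col4a5 and Col4a6 difference was not tested. The 7 pericyte markers were at 984 and 856 in small intestinal and 90.1 and 68.5 in colonic remaining FB. They were also higher in the small intestine in CD81+ FB (341 and 467 against 19.2 and 68.0) and in PDGFRαhi FB (218 and 288 against 111 and 128). Whether these values reflect other cells in the gate or a level shared by FB was not tested.

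**Figure D4:**
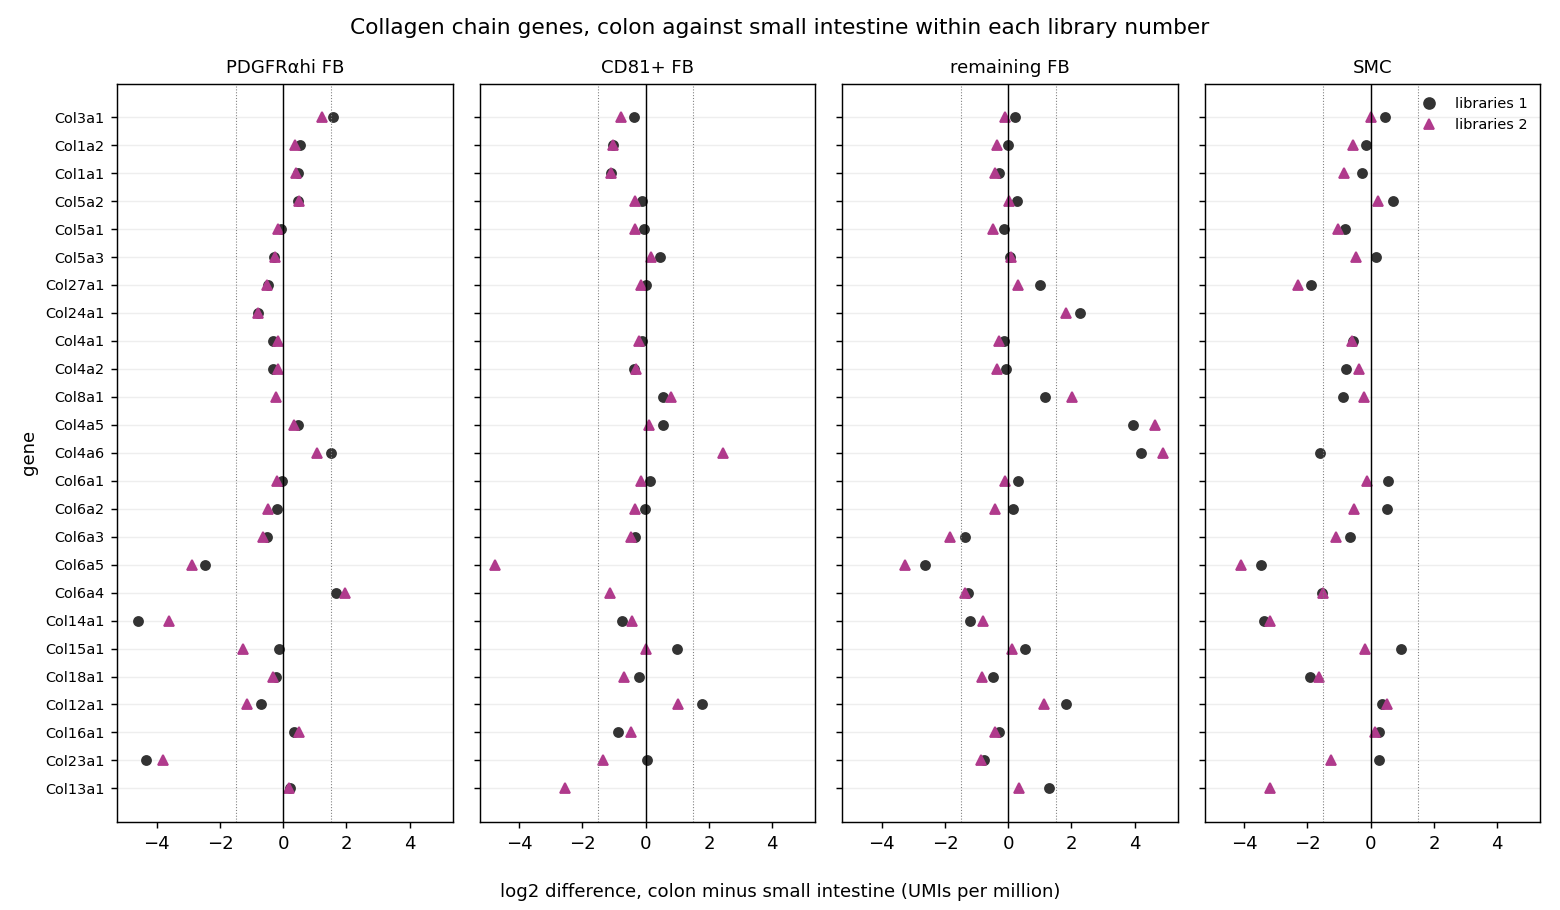
Colon minus small intestine difference in CPM (horizontal axes, log2) of the 25 most abundant collagen chain genes (rows) in 4 classes, with 1 point for each replicate number and dotted lines at a change of 1.5. Pairs with a library of 3 or fewer UMIs are not drawn. Col23a1 in PDGFRαhi FB lies at -4.32 and -3.80, and Col4a5 and Col4a6 in remaining FB lie at 3.96 and 4.64 and at 4.19 and 4.89.

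Some members did not overlap between the intestines without passing the test, and those given here are examples. For 2 libraries against 2 the smallest exact two-sided permutation p is 0.33, and the share of all genes so separated was not counted. Col6a5 was lower in the colon in each of the 4 classes, with changes of -2.57, -4.49, -3.03 and -3.84 in PDGFRαhi FB, CD81+ FB, remaining FB and SMC (adjusted p = 0.121, 0.248, 0.0794 and 0.0591). Its levels in SMC, 33.2 and 106 CPM against 3.02 and 6.13, stand beside remaining FB markers at 7486 and 6940 CPM in small intestinal and 1431 and 1105 in colonic SMC; the part of such cells was not tested. Col6a4 was at 44.9 and 44.4 in small intestinal and 144 and 171 in colonic PDGFRαhi FB, a change of 1.98 (SE 0.27, adjusted p = 0.0544). Col3a1 in PDGFRαhi FB was at 1586 and 2259 against 4689 and 5351, a change of 1.54 (SE 0.34, adjusted p = 0.131). Col6a3 in remaining FB was at 711 and 952 against 279 and 269, a change of -1.63 (SE 0.27, adjusted p = 0.115). Col14a1 in PDGFRαhi FB was at 89.1 and 243 against 3.71 and 20.1, and Col12a1 in remaining FB at 128 and 119 against 450 and 263. Neither was called.

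Within replicate numbers the direction was counted over the 2 pairs of libraries, for genes with more than 3 UMIs in each library. In PDGFRαhi FB 9 of 27 members were higher in the colon in both pairs, 17 lower in both and 1 divided. In CD81+ FB the numbers were 5, 13 and 4 of 22, in remaining FB 11, 16 and 4 of 31, and in SMC 3, 12 and 6 of 21. Over all genes 22.0% were higher in both pairs and 49.7% lower in PDGFRαhi FB, 48.1% and 21.2% in CD81+ FB, 36.5% and 33.9% in remaining FB, and 28.2% and 37.8% in SMC. Both pairs share the 2 intestines and a gene can pass this count at any size of change.

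Whether the intestines differed by the same amount in 2 classes was tested directly for PDGFRαhi FB and remaining FB, in 1 fit with the library as a block. Remaining FB join different subsets of the study in the 2 intestines, and the part of subset make-up in the result was not tested. At an adjusted p under 0.05 with no limit of size, 14 of 30 tested members were called, 8 with the higher colon minus small intestine change in PDGFRαhi FB and 6 in remaining FB, against 6.29% and 4.67% of 12690 genes. The 8 were the fibrillar Col1a1, Col1a2, Col3a1 and Col5a2, together with Col6a3, Col6a4, Col16a1 and Col18a1. Col6a4 had the widest of these differences, 3.37 (SE 0.17, adjusted p = 1.29e-10), with 44.9 and 44.4 CPM in the small intestine and 144 and 171 in the colon in PDGFRαhi FB, and 22.5 and 25.4 against 9.30 and 9.93 in remaining FB. For Col3a1 the difference was 1.53 (SE 0.12, adjusted p = 3.76e-08), between a change of 1.54 in PDGFRαhi FB and of 0.01 in remaining FB. The 6 were Col4a5, Col4a6, Col12a1, Col23a1, Col24a1 and Col27a1, among which Col4a5 had -3.88 (SE 0.20, adjusted p = 9.41e-11) and Col12a1 -2.22 (SE 0.23, adjusted p = 0.000496). Col18a1 lost its call without small intestine 2 (adjusted p = 0.0778), and Col5a2 without small intestine 2 (0.163) or colon 2 (0.116).

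Chains of the same collagen type were next set against each other, as ratios of UMIs within a library and class, which do not depend on the other transcripts of the cells. The ratio of Col4a1 to Col4a2 stayed between 1.49 and 2.34 in all 20 sums, with a median of 2.01. That of Col6a1 to Col6a2 lay between 0.939 and 1.65. The ratio of Col1a1 to Col1a2 followed the library: it was 0.859 to 1.35 in the replicate 1 libraries and 0.429 to 0.603 in the replicate 2 libraries, with no overlap in any of the 5 classes. The replicate numbers also divide the Cell Ranger versions, and which library had the 3′ and which the 5′ kit is not given in the sources used here, so the part of the kit was not tested. Levels of Col1a1 and Col1a2 are therefore given by replicate number.

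Other ratios differed between replicate numbers too. Replicate 2 had the higher Col6a3 to Col6a1 ratio in 10 of 10 pairs of the same class and intestine, the higher Col5a1 to Col5a2 ratio in 9 of 10 and the higher Col6a1 to Col6a2 ratio in 7 of 10, and the lower Col6a4 to Col6a5 ratio in 6 of 6. Within a replicate number, 3 of these ratios also differed between intestines in the classes named here. Col6a3 to Col6a1 was 0.580 and 0.755 in small intestinal and 0.182 and 0.229 in colonic remaining FB, and 0.679 and 0.882 against 0.484 and 0.699 in CD81+ FB. Col6a4 to Col6a5 was 0.827 and 0.368 in small intestinal and 14.6 and 10.4 in colonic PDGFRαhi FB. In SMC the latter was 5.11 and 1.68 against 19.3 and 10.2, and in remaining FB 0.170 and 0.103 against 0.435 and 0.385. Col5a1 to Col5a2 was 0.6 and 0.542 in small intestinal and 0.210 and 0.225 in colonic SMC.

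**Figure D5:**
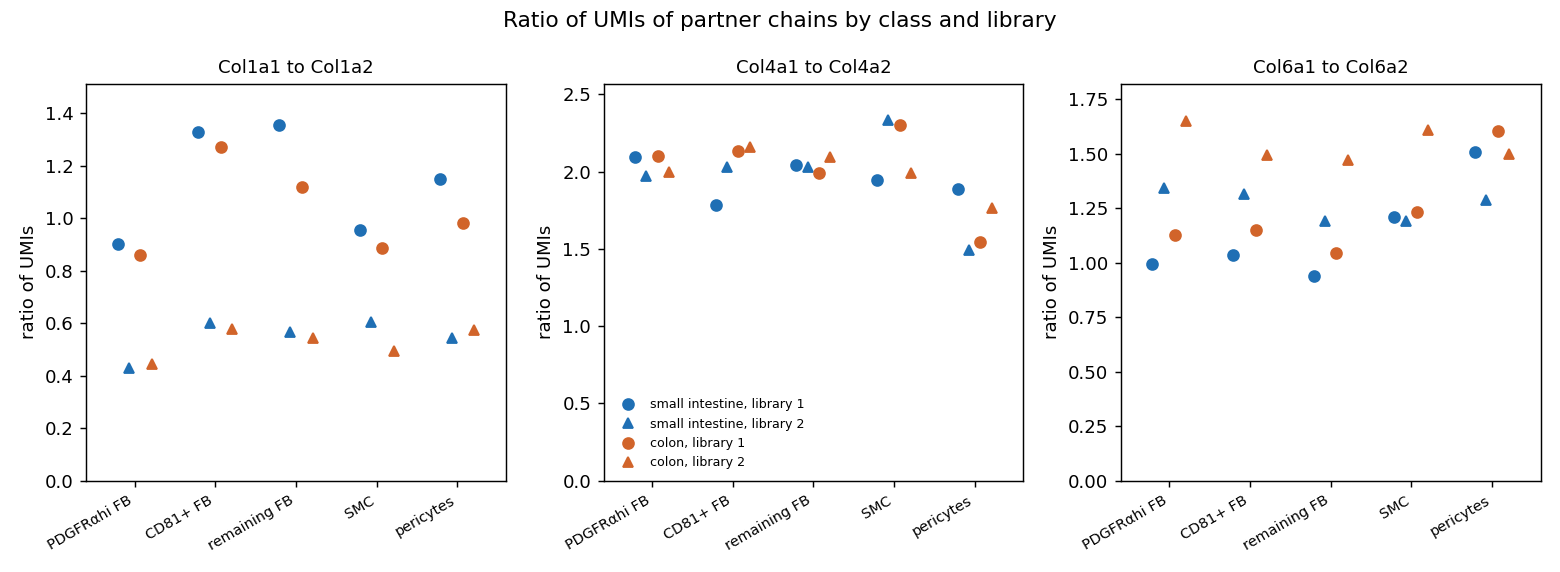
Ratio of the UMIs of paired collagen chains (vertical axes) in each class (horizontal axes), with 1 point per library, circles for replicate 1 and triangles for replicate 2. Col1a1 to Col1a2 separates replicate 1 (0.859 to 1.35) from replicate 2 (0.429 to 0.603) in all classes, while Col4a1 to Col4a2 stays between 1.49 and 2.34.

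Across the 20 sums of class and library, after centring within each library, the 25 most abundant members were ordered by Pearson's r, as a description of sums that share libraries and cells. Col1a1 and Col1a2 were nearest to each other at r = 0.987, as were Col6a1 and Col6a2 at 0.987 and Col4a1 and Col4a2 at 0.954. Col3a1 was nearest to Col5a2, at 0.927, and the starts of the genes lie 191744 bases apart on chromosome 1. Col4a5 was nearest to Col4a6, at 0.859, and then to Col24a1, at 0.849. Col4a1 was the member least like Col1a2, at -0.806, and Col8a1 the member least like Col24a1, at -0.815.

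Genes that modify, process or bind collagen were read from 3 lists. Between the intestines 2 of their genes were called. Itga11, a chain of a collagen-binding integrin, was at 223 and 221 CPM in small intestinal and 49.2 and 36.8 in colonic PDGFRαhi FB, a change of -2.23 (SE 0.25, adjusted p = 0.0375). P4ha3, a catalytic subunit of a collagen prolyl hydroxylase, had no UMI in small intestinal CD81+ FB and was at 14.6 and 10.4 CPM in the colon (adjusted p = 0.0462). Against a floor of 3 counts over the small intestinal group, 0.229 CPM, it was at least 48.2-fold higher. The Itga11 call was lost without small intestine 1 (adjusted p = 0.139), small intestine 2 (0.207) or colon 2 (0.0525), and the P4ha3 call without small intestine 2 (0.0777).

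Between the classes the 18 modification and folding genes showed 1 higher and 1 lower in PDGFRαhi FB, 1 and 1 in CD81+ FB, 1 and 5 in SMC and 1 and 10 in pericytes. Of the 14 processing and cross-linking genes tested, 0 were higher and 4 lower in PDGFRαhi FB, 1 and 2 in CD81+ FB, 0 and 9 in SMC and 0 and 6 in pericytes. Of the 8 receptor and uptake genes tested, 2 were higher and 1 lower, 0 and 1, 1 and 1, and 3 and 2. Over all genes 5.13% were called higher and 7.07% lower in PDGFRαhi FB, and 2.31% and 3.04% in CD81+ FB. The shares were 6.62% and 9.98% in SMC and 7.96% and 7.42% in pericytes. No count of a list was tested against these shares. Pcolce2, an enhancer of procollagen C-propeptide removal, was at 461, 426, 430 and 483 CPM in CD81+ FB, 64.6, 60.3, 4.46 and 28.5 in remaining FB and 0.670, 4.16, 0.309 and 1.60 in PDGFRαhi FB. Its changes were 4.07 (SE 0.51, adjusted p = 0.000169) in CD81+ FB and -4.46 (SE 0.64, adjusted p = 0.000153) in PDGFRαhi FB. Adamts2, which removes the N-propeptide, was at 33.5, 54.1, 45.8 and 39.2 in PDGFRαhi FB against 228, 245, 261 and 262 in remaining FB, lower with a log2 change of -2.72 (SE 0.23, adjusted p = 1.1e-07).

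P3h2, a prolyl 3-hydroxylase, was at 0, 0.096, 1.37 and 1.25 CPM in CD81+ FB and at 5.91, 4.13, 29.2 and 10.1 in remaining FB, lower with a log2 change of -3.66 (SE 0.43, adjusted p = 3.82e-05). P4ha3 was called higher in CD81+ FB by 2.28 (SE 0.56, adjusted p = 0.0255) and lower in PDGFRαhi FB with a log2 change of -3.85 (SE 0.92, adjusted p = 0.0091), both resting on the colon since the small intestinal libraries held at most 0.278 CPM. In SMC Pcolce2 was lower with a log2 change of -3.53 (SE 0.82, adjusted p = 0.00458), the uptake receptor Mrc2 with a log2 change of -3.41 (SE 0.47, adjusted p = 7.7e-05) and the galactosyltransferase Colgalt2 with a log2 change of -2.73 (SE 0.92, adjusted p = 0.0335). In pericytes the integrin chain Itga10 was higher by 3.67 (SE 0.65, adjusted p = 0.000406), at 17.4, 0, 12.7 and 8.56 CPM against 1.11, 1.21, 0.382 and 0.458 in remaining FB. The cross-linking oxidase Loxl1 was lower there with a log2 change of -3.55 (SE 0.50, adjusted p = 0.000116) and Itga11 with a log2 change of -3.20 (SE 0.85, adjusted p = 0.012). The Itga11 call in pericytes was lost without small intestine 1 (adjusted p = 0.0622) or colon 1 (0.0808), and the Colgalt2 call in SMC without small intestine 1 (0.103), colon 1 (0.196) or colon 2 (0.107). Both P4ha3 calls between classes were lost under DESeq2, with an adjusted p of 0.4 for CD81+ FB and 0.459 for PDGFRαhi FB. With the classes set by clusters, the calls of Pcolce2 (adjusted p = 0.118) and Colgalt2 (0.0978) in SMC, of Itga11 in pericytes (0.0636) and of P4ha3 in CD81+ FB (0.098) were lost.

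Of the other members, Col4a3, Col4a4, Col8a2, Col20a1, Col7a1, Col11a2, Col9a3 and Col6a6 held 54 to 380 UMIs in all. Col4a3 and Col4a4, the chains of another type IV trimer, whose starts lie 72 bases apart on chromosome 1, were at 3.35 and 3.33 and at 7.37 and 3.89 CPM in small intestinal PDGFRαhi FB, and at 0.619 and 0.363 and at 0.464 and 0.727 in colonic ones. Their small intestinal levels lay above the colonic ones in PDGFRαhi FB, CD81+ FB and remaining FB, with no call in any of them. These levels rest on few UMIs: colonic PDGFRαhi FB held 4 and 5 of Col4a3 and 3 and 10 of Col4a4. CD81+ FB of colon 1 held 2 of Col4a3. The share of all genes so separated was not counted. In all, 3 of the 35 members had too few UMIs to be tested in any fit.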

How the data were processed

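Single-cell RNA sequencing libraries of sorted MSC were available for 4 samples, 2 per intestine. The authors deposited, for each library, filtered matrices of raw UMI counts per gene and cell. The matrix headers name Cell Ranger 3.0.2 in both libraries numbered 1 and 3.1.0 in both numbered 2. Reads were aligned to mm10, with a 3′ v3 or a 5′ 10x kit, and the submitters' processing notes name Cell Ranger 3.0.2 and Seurat 3. No normalization had been applied to the deposited counts.

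Cells with at least 500 genes, 1000 UMIs and at most 10% mitochondrial UMIs were kept. Doublets were scored with Scrublet in scanpy 1.11.5 and removed above 0.25, which took 11, 482, 32 and 361 cells (small intestine 1 and 2, colon 1 and 2), since the automatic limit marked 1 cell of small intestine 2. Cells were assigned to classes at a probability over 0.5 from marker lists without collagen genes. This assignment rule and the doublet limit were set after the data were seen, and classes rebuilt by clusters without collagen genes were used as an alternative. That alternative dropped remaining FB unevenly. Clusters named plasma and immune cells took 203 and 13 of 868 in colon 1 and 717 and 324 of 4719 in colon 2. In the small intestine they took 12 (immune) of 700 in library 1 and 93 (plasma) of 9525 in library 2. Cells holding at least 2 markers of endothelial, immune, plasma, glial, epithelial, mesothelial or interstitial cells of Cajal lists were set aside. No file of cell annotations was used.

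UMIs were summed per library and class and fitted over all genes with edgeR 4.0.16 (R 4.3.3; filterByExpr, TMM, quasi-likelihood test, robust, Benjamini-Hochberg adjustment). Intestines were compared within a class at a log2 change beyond 1.5, the limit of the study, and classes with the library as a block at a change beyond 1. SE was taken from the change and its F statistic. Levels are counts per 1000000 UMIs of the class in that library (CPM). For shares of cells, each cell was also thinned to 1000 UMIs, and no kept cell was shallower. On simulated sums with 8-fold changes, 99.5% of 199 changed genes were recovered among 11687 genes for the intestines in PDGFRαhi FB, with 4 false calls. For the difference between the classes 94% of 200 were recovered among 12480, with 9 false calls. These sums had a fixed spread, no replicate effect and changes only in well counted genes, so they do not measure the power in the real libraries.

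The members and lists were chosen with earlier results of these data known. Genes were named by rule: in each family the 5 members with the most UMIs, every member called between the intestines, and per class contrast and family up to 3 called members with the largest change. From the 3 collagen lists those called between the intestines and up to 3 per class contrast were named. Col5a3, Col5a2, Col4a3, Col4a4 and the other rare members are named in addition. Gene positions are from GENCODE vM21 (GRCm38) and promoter sequences from RefSeq (GRCm38.p6). Alternatives were other size factors, DESeq2 1.42.0, no count filter, a stricter gate, clusters, doublets kept, a replicate block and each library left out.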

Additional observations from a re-analysis of the deposited data

Results flagged for a closer look

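The colon minus small intestine change differed between PDGFRαhi FB and remaining FB for 14 collagen genes by the test of that difference. Each value below is the change in PDGFRαhi FB minus the change in remaining FB, on the log2 scale, with edgeR's quasi-likelihood test and Benjamini-Hochberg adjustment over all genes.

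Among the fibrillar genes the difference was 1.53 for Col3a1 (SE 0.12, adjusted p = 3.76e-08), 0.99 for Col1a1 (SE 0.12, adjusted p = 1.58e-05), 0.83 for Col1a2 (SE 0.13, adjusted p = 0.000254) and 0.53 for Col5a2 (SE 0.13, adjusted p = 0.0127). It was negative for the less common fibrillar chains, -2.51 for Col24a1 (SE 0.34, adjusted p = 3.22e-05) and -0.93 for Col27a1 (SE 0.18, adjusted p = 0.00361). Col1a1 had changes of 0.58 in PDGFRαhi FB and -0.38 in remaining FB, and Col24a1 of -0.64 and 1.98.

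Of the network genes, Col4a5 had -3.88 (SE 0.20, adjusted p = 9.41e-11) and Col4a6 -3.33 (SE 0.29, adjusted p = 1.99e-07). Their changes in PDGFRαhi FB were 0.56 and 1.39, against 4.32 and 4.55 in remaining FB. Of the Col6 genes, Col6a4 had 3.37 (SE 0.17, adjusted p = 1.29e-10), between 1.98 and -1.34, and Col6a3 had 1.21 (SE 0.14, adjusted p = 6e-06), between -0.42 and -1.63.

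Of the minor genes, Col23a1 had -2.97 (SE 0.29, adjusted p = 1.61e-05), Col12a1 -2.22 (SE 0.23, adjusted p = 0.000496), Col16a1 0.96 (SE 0.15, adjusted p = 0.000168) and Col18a1 0.59 (SE 0.13, adjusted p = 0.0057). Col12a1 changed by -0.78 in PDGFRαhi FB and by 1.49 in remaining FB, neither of which passed its own test. The calls of Col18a1 and Col5a2 were lost without small intestine 2 (adjusted p = 0.0778 and 0.163), that of Col5a2 also without colon 2 (0.116), and the other 12 were kept under every setting tried for them.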

How the results depend on the processing

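No called member changed direction under any alternative. Between the intestines the numbers of called collagen genes, 1, 0, 2 and 0 in PDGFRαhi FB, CD81+ FB, remaining FB and SMC, became 5, 2, 6 and 4 with DESeq2, 4, 2, 5 and 5 without the low-count filter and 2, 1, 1 and 1 with classes by clusters, and 0 in remaining FB with doublets kept. Leaving out each library in turn gave 0 to 3, 0 to 1, 0 to 3 and 0 to 4 between the intestines, 9 to 10, 5 to 8, 9 to 14 and 9 to 12 in the contrasts of PDGFRαhi FB, of CD81+ FB, of SMC and of pericytes with remaining FB, and 13 to 17 for the difference between classes. A fit that leaves 1 library in a group assumes that this library varies like the others. The collagen share of small intestinal PDGFRαhi FB, 1.54%, was 1.523% with clusters, 1.528% with a stricter gate and 1.552% with doublets kept, each beyond the small gap between its replicates.

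The replicate numbers are shared by the intestines, and with 2 pairs they were treated as numbers only. With the replicate number as a replicate block, 7, 5, 8 and 5 members were called. Deviations of same-numbered libraries correlated at 0.593 to 0.791 over all genes, as a hint from the data. Over the collagen members alone they correlated at 0.285 in remaining FB and at 0.546 to 0.783 in the other classes. The block called 910, 467, 710 and 469 of all genes against 148, 58, 66 and 63 without it.

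Over all genes, DESeq2 called 552, 281, 435 and 172 between the intestines, no filter 521, 383, 324 and 397, and clusters 170, 94, 154 and 160, against 33 in SMC with doublets kept. For the difference between classes DESeq2 called 768 against 1391. Of 244 checks of single calls with a library left out, 40 lost the call, as did 7 of 61 with clusters, 4 without the filter, 3 with DESeq2, 3 with doublets kept and 1 with other size factors.

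Depth limits the rare members: 3 UMIs were 11.1 and 9.32 CPM in small intestinal SMC and 8.69 and 20.3 in small intestinal pericytes. The gates hold mixed cells, most in remaining FB, in the SMC of both small intestinal libraries and in the pericytes of small intestine 2. The kit of each library is not given in the sources used here.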
